A study of Mus musculus with 15 samples.

Results

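The enzymes that make and break down the cyclic nucleotides cAMP and cGMP were followed across 2 brain regions of 2 mouse lines. The set was taken by gene symbol and not by any measured value: every Pde symbol of a numbered phosphodiesterase, every Adcy symbol of an adenylyl cyclase and every Gucy symbol of a guanylyl cyclase. It held 42 of the 26628 genes in the table, namely 23 Pde, 10 Adcy and 9 Gucy symbols. The study asked how the brain transcriptome of a line bred for high voluntary wheel running (Hi) differs from that of a non-selected control line (Co), and profiled cerebellum (Ce) and striatum (St) by RNA sequencing. All animals were male Hsd:ICR mice, a stock of outbred origin, with an age of 6 weeks in the labels. Each was caged singly with a running wheel, and brains were taken after 7 days. Both lines therefore had wheel access, but the paper reports that Hi mice ran farther and faster than Co mice. Line and amount of running therefore cannot be told apart. The 4 groups were CeCo and CeHi with 4 samples each, StCo with 4 and StHi with 3. One selected line was set against one control line, so selection and any other difference between these 2 lines cannot be told apart. The labels do not say which cerebellum and striatum samples share a mouse.

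Adenylyl cyclases convert ATP to cAMP and integrate signals from stimulatory and inhibitory G proteins, calcium and, for some isoforms, G protein beta-gamma subunits. Guanylyl cyclases make cGMP, either as soluble heterodimers of an alpha and a beta subunit that respond to nitric oxide or as membrane receptors. Phosphodiesterases end both signals, and their families differ in whether they hydrolyse cAMP, cGMP or both. In the striatum dopamine and adenosine receptors of medium spiny neurons act through cAMP, while in the cerebellum nitric oxide and cGMP act on Purkinje cells.

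Values are normalized counts, that is, fragments assigned to a gene after scaling for library size. Summed over genes they came to between 38499264 and 43669012 per sample. Of the 42 members, 35 passed the filter on low values (3 or more samples with a CPM of 1 or above, where CPM is counts per 1e+06), as did 15213 genes in all. The labelled regions were checked against cell-type markers. All 8 medium spiny neuron markers found in the table, of 9 listed, were higher in striatum (median log2 difference of cerebellum minus striatum of -7.25), and all 6 Purkinje cell and all 6 granule cell markers were higher in cerebellum (medians of 4.35 and 8.92). One cerebellum library stood apart: in CeHi replicate 3 the medium spiny neuron markers had a median of 1.94% of their striatal level, against 0.509 to 0.653% in the other 7 cerebellum libraries. The summed level of 4 choroid plexus markers varied widely, from 1303 to 115133 normalized counts in CeCo and from 942 to 111567 in CeHi. It was 17849 in StHi replicate 2, against 1251 to 3366 in the other 6 striatum libraries.

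The 250 bases before the annotated transcription start are shown for 3 members on which the results turn: Gucy1a2, the member that differed between lines in both regions, and Adcy1 and Adcy5, the adenylyl cyclases that took the largest share in cerebellum and in striatum. Sequences are those of RefSeq on GRCm38.p6, plus strand, 5′ to 3′, and lie at chr9:3532099-3532348 for Gucy1a2, chr11:7063183-7063432 for Adcy1 and chr16:35154614-35154863 for Adcy5. Capitals mark the core of the cAMP response element, TGACG, and the GC box, GGGCGG, on either strand.
Gucy1a2: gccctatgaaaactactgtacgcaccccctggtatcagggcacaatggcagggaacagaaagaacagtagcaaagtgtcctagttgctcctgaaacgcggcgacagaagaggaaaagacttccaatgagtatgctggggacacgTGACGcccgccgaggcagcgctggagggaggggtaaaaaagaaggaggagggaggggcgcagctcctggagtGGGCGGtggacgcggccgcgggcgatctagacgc
Adcy1: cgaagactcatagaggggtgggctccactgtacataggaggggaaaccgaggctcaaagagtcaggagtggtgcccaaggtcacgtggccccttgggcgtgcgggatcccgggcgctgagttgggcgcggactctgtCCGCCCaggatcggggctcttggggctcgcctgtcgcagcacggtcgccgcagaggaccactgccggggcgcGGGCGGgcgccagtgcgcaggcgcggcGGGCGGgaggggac
Adcy5: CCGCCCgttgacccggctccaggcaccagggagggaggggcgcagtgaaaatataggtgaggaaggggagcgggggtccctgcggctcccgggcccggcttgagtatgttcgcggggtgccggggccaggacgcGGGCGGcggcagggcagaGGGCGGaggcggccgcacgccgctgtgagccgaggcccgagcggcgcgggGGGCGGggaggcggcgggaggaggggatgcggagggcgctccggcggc
The Gucy1a2 window held 1 core and 1 GC box, that of Adcy1 held 3 GC boxes and that of Adcy5 held 4. RefSeq gave 59 promoter windows for 33 of the 42 members. The full cAMP response element, TGACGTCA, which contains the core, was in 0 of these 59 windows and in 1.55% of all 32851 windows of the same length. The core was in 9 of 59 (15.3%) against 17.8% of all windows, and the GC box in 22 of 59 (37.3%) against 32.7%. A match describes letters in a window and is not evidence of a bound factor.

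The difference between the regions was large for most members. At an adjusted p under 0.05 (limma with Benjamini-Hochberg adjustment over all 15213 genes), 30 of the 35 tested members differed between cerebellum and striatum, 8 of them higher in cerebellum and 22 higher in striatum. The background was high, since 80.2% of all genes tested passed the same threshold, so the count alone says little about these enzymes. By size, 14 of 35 members were more than 2-fold higher in striatum, where 14.5% of all genes were, and 7 of 35 were more than 2-fold higher in cerebellum, where 9.61% of all genes were. The 14 include Gucy2f, Gucy2g and Pde11a, which passed the filter on low values through striatum samples only. For these genes the filter itself favoured the striatal direction. In the cerebellum samples alone 32 members passed the filter, and in the striatum samples alone 35. The median absolute log2 difference was 1.35 over the members and 0.44 over all genes tested. In such bulk tissue, fewer cells of a type and less RNA per cell cannot be told apart, and the part of cell-type makeup in these differences was not tested.

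**Figure D1:**
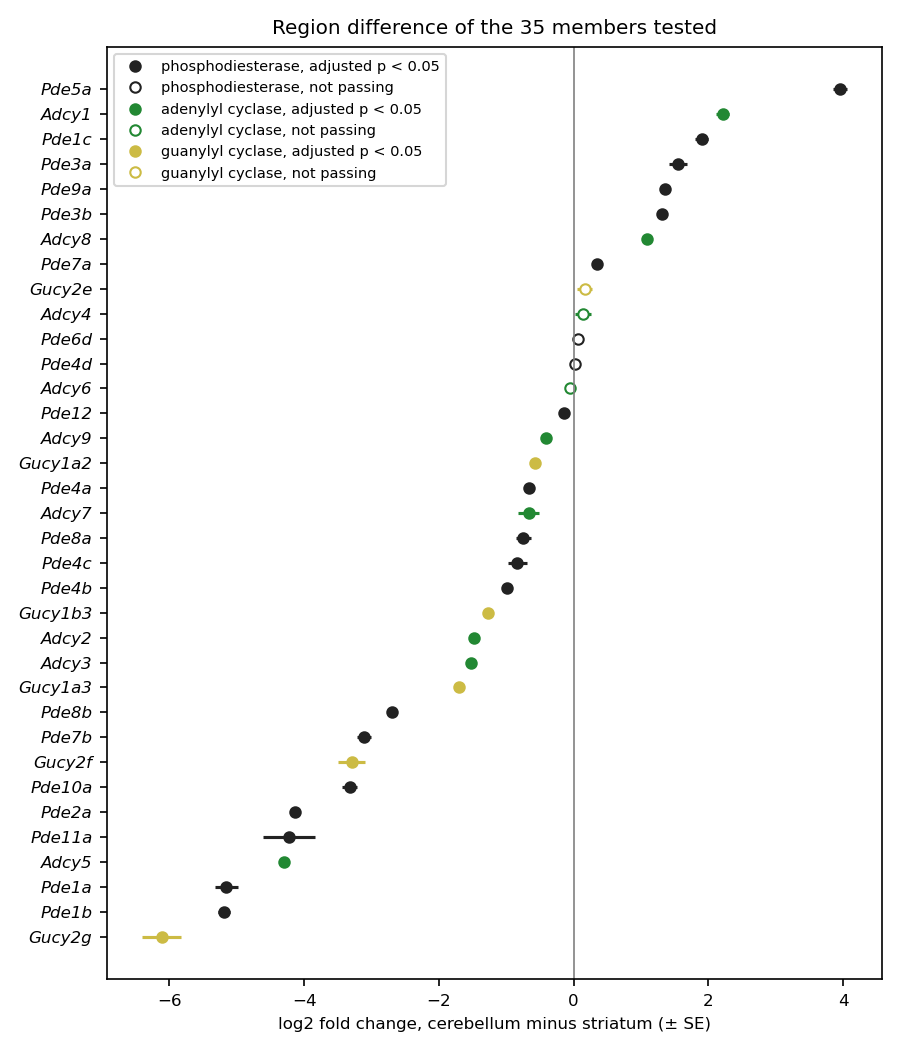
Log2 fold change of cerebellum minus striatum with its standard error for the 35 members tested, over all 15 samples, ordered by size. Filled points passed an adjusted p of 0.05. Phosphodiesterases (black) and adenylyl cyclases (green) passed on both sides of 0, while the 5 Gucy genes (yellow) that passed all lie on the striatal side. Of these, Gucy2f and Gucy2g passed the filter on low values through striatum samples only. Values run from Gucy2g at -6.11 to Pde5a at 3.95.

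Phosphodiesterases that accept both cyclic nucleotides divided sharply by region. All 8 were tested, 5 were higher in striatum (Pde1a, Pde1b, Pde2a, Pde10a and Pde11a) and 3 in cerebellum (Pde1c, Pde3a and Pde3b). Pde1b, a calcium- and calmodulin-stimulated enzyme, had 33937 to 47174 normalized counts in the 7 striatum samples (median 41690) and 948 to 1625 in the 8 cerebellum samples (median 1106). The striatal level was 36.4-fold higher (log2 difference -5.19 ± 0.09 SE, adjusted p = 5.06e-17). Its relative Pde1a was 35.6-fold higher in striatum, with 3946 to 7975 normalized counts against 118 to 258. The third calcium- and calmodulin-stimulated gene, Pde1c, went the other way, with 5287 to 7837 normalized counts in cerebellum and 1466 to 2151 in striatum, a log2 difference of 1.90 ± 0.09 (adjusted p = 1.8e-11). No sample of one region reached the range of the other for any of the 3.

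Pde2a, whose cAMP hydrolysis is stimulated by cGMP, had 28377 to 32828 normalized counts in striatum and 1507 to 1933 in cerebellum, a 17.6-fold difference (log2 -4.14 ± 0.04, adjusted p = 6.48e-21). Annotated exons of a same-strand locus, Gm45837, cover 64.3% of the Pde2a exon bases, so fragments of these loci could be shared in the counting. Pde10a, a dual-substrate enzyme known for its abundance in medium spiny neurons, had 39758 to 59198 in striatum and 3567 to 6147 in cerebellum, 9.99-fold apart. Pde11a was sparse, with 55.8 to 117 normalized counts in striatum and 0.892 to 19.0 in cerebellum, where the highest value belonged to the CeHi library with raised medium spiny neuron markers. Both cGMP-inhibited enzymes were higher in cerebellum, Pde3a with 417 to 771 normalized counts against 130 to 221 and Pde3b with 1588 to 2476 against 731 to 827.

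Among the 8 cAMP-specific phosphodiesterases, 6 were higher in striatum and 1, Pde7a, in cerebellum. The widest gap belonged to Pde7b, with 6444 to 9459 normalized counts in striatum and 710 to 1225 in cerebellum (8.65-fold). Pde8b followed with 5200 to 6293 against 816 to 954 (6.49-fold). The Pde4 genes, the targets of rolipram, differed less. Pde4b had 7137 to 8472 normalized counts in striatum and 3376 to 4615 in cerebellum (1.99-fold), and Pde4a 4158 to 5572 and 2901 to 3444 (1.58-fold). Pde4d, with 3195 to 3798 and 2907 to 3874, did not pass the test (log2 difference 0.015 ± 0.05, adjusted p = 0.789). Pde8a (641.8 against 378, medians of striatum and cerebellum) and the scarce Pde4c (50.3 to 72.6 against 23.2 to 41.0) were higher in striatum, and Pde7a was 1.27-fold higher in cerebellum.

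The cGMP-specific enzymes had the opposite orientation. Of 5 such genes, 2 were tested and both were higher in cerebellum. Pde5a, the target of sildenafil and an enzyme known from Purkinje cells, had 3411 to 5111 normalized counts in cerebellum and 208 to 328 in striatum, 15.5-fold apart (log2 3.95 ± 0.10, adjusted p = 3.38e-15). Pde9a, which has a high affinity for cGMP, had 1868 to 2741 in cerebellum and 727 to 1167 in striatum, 2.55-fold apart (log2 1.35 ± 0.06, adjusted p = 1.69e-12). The photoreceptor catalytic subunits Pde6a, Pde6b and Pde6c were not tested and stayed between 0 and 13.7 normalized counts in every sample. Pde6d, a prenyl-binding protein with no catalytic activity, ranged from 1610 to 2012 over both regions and did not pass (adjusted p = 0.132). Pde12, a mitochondrial enzyme that does not act on cyclic nucleotides, had medians of 742 in striatum and 681 in cerebellum and was higher in striatum.

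Set on a common footing per kilobase of annotated exon, phosphodiesterase transcripts were more abundant in striatum and of a different makeup. The summed level of the cyclic nucleotide phosphodiesterases per kilobase was 21491 ± 2252 normalized counts (SD) in the 4 StCo and 21802 ± 1999 in the 3 StHi samples, against 4123 ± 192 in the 4 CeCo and 4185 ± 187 in the 4 CeHi samples. Dual-substrate enzymes made up 37.4% of this sum in CeCo and 35.6% in CeHi, and 81.9% and 82.3% in StCo and StHi. The cGMP-specific enzymes made up 24.7% and 27.3% in CeCo and CeHi but 1.52% and 1.14% in StCo and StHi, and the cAMP-specific enzymes 37.9% and 37.1% against 16.6% in both striatal groups. In striatum 3 genes carried most of the sum: Pde1b (34.4% in StCo), Pde2a (23.1%) and Pde10a (17.9%). In cerebellum the largest share was that of Pde9a, 14.5 ± 0.97% in CeCo and 16.8 ± 1.5% in CeHi.

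**Figure D2:**
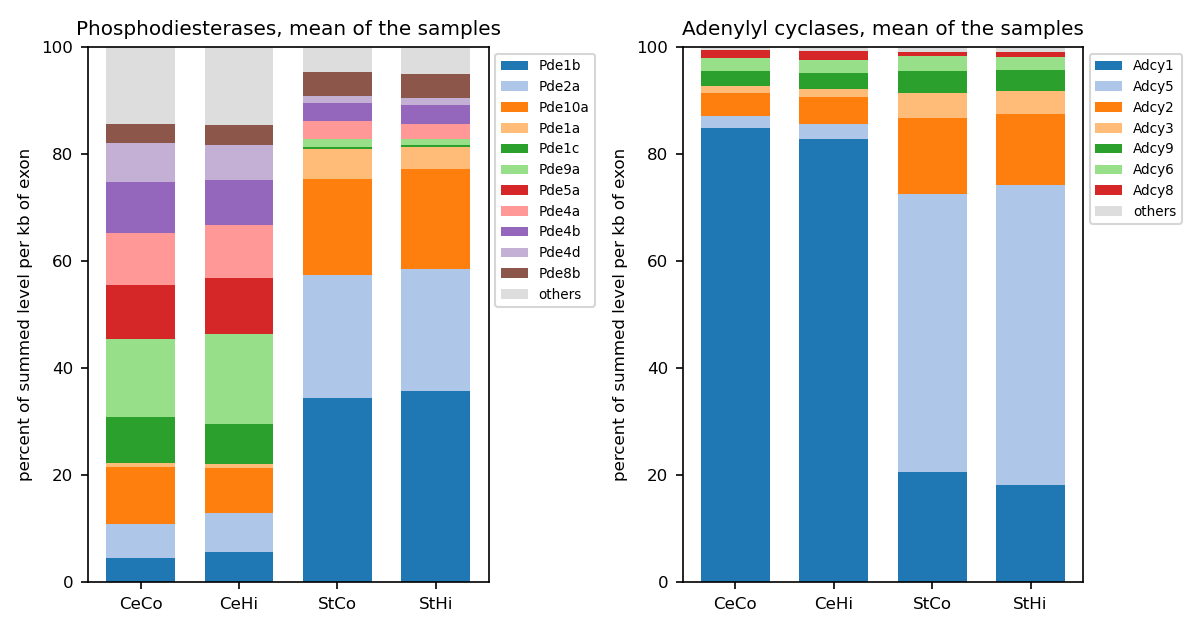
Share of each gene in the summed level per kilobase of exon of the cyclic nucleotide phosphodiesterases (left) and the adenylyl cyclases (right), as the mean over the samples of each group, in percent. Pde1b, Pde2a and Pde10a fill most of the striatal phosphodiesterase bars, and Adcy1 (84.8% in CeCo) gives way to Adcy5 (51.9% in StCo) among the adenylyl cyclases.

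The adenylyl cyclases exchanged their leading isoform between regions. Adcy1, a calcium- and calmodulin-stimulated isoform, had 97120 to 127537 normalized counts in cerebellum and 19384 to 28683 in striatum, a log2 difference of 2.21 ± 0.09 (adjusted p = 2.01e-12). Per kilobase it made up 84.8 ± 0.41% of the adenylyl cyclase sum in CeCo and 82.8 ± 1.9% in CeHi, and 20.7 ± 2.5% and 18.2 ± 3.3% in StCo and StHi. Adcy5, a calcium-inhibited isoform known as the main cyclase of medium spiny neurons, had 34023 to 46084 normalized counts in striatum and 1812 to 2389 in cerebellum, 19.7-fold apart (adjusted p = 6.84e-19). It took 51.9 ± 3.0% of the sum in StCo and 55.9 ± 5.4% in StHi, but 2.35% and 2.84% in CeCo and CeHi. Unlike the phosphodiesterases, the cyclases summed to similar levels per kilobase in all groups, 11225 ± 345 and 10538 ± 1198 for CeCo and CeHi and 10016 ± 761 and 10281 ± 244 for StCo and StHi, and these ranges overlapped between regions.

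Of the other adenylyl cyclases, the calcium-stimulated Adcy8 was 2.14-fold higher in cerebellum (1322 to 1623 against 503 to 793 normalized counts). Adcy2, which G protein beta-gamma subunits stimulate, was 2.80-fold higher in striatum (5084 to 6479 against 1885 to 2268), and Adcy3 was 2.88-fold higher there (2501 to 2987 against 895 to 1076). The opposite-strand gene Cenpo covers 22.1% of the Adcy3 exon bases, and whether the counting used strand is not given in the sources used here. Adcy9 (2217 against 1614, medians of striatum and cerebellum) and Adcy7 (502 against 317) were also higher in striatum, by 1.33-fold and 1.59-fold. The calcium-inhibited Adcy6, with medians of 1785 and 1724, did not pass (adjusted p = 0.277), nor did Adcy4, below 114 normalized counts in every sample (adjusted p = 0.262). The bicarbonate-responsive soluble cyclase Adcy10 was not tested and had 1.30 to 7.13 normalized counts.

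Among the genes with a Gucy symbol, nearly all transcript belonged to the soluble subunits, 99.1% of the sum per kilobase in CeHi and 98.4% in StCo. This sum leaves out the natriuretic peptide receptors Npr1 and Npr2, which are membrane guanylyl cyclases without a Gucy symbol. All 3 tested soluble subunits were higher in striatum. The beta1 subunit, Gucy1b3, had 10365 to 13813 normalized counts in striatum and 4732 to 5386 in cerebellum (2.41-fold). The alpha1 subunit, Gucy1a3, had 5693 to 7723 and 1922 to 2216 (3.27-fold). The alpha2 subunit, Gucy1a2, was 1.49-fold higher in striatum over both lines, with ranges of 2493 to 4389 and 1602 to 3654 that overlapped. The beta2 gene Gucy1b2 stayed between 2.56 and 10.9 normalized counts and was not tested. GRCm38 annotation names Gucy1a3 and Gucy1b3 by the newer symbols Gucy1a1 and Gucy1b1.

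The membrane guanylyl cyclases with a Gucy symbol were scarce in both regions. Outside the set, Npr2 had 2312 ± 130 normalized counts (SD) in CeCo and 1587 ± 229 in StCo. Npr1 had 865 ± 53.5 in CeCo and 102 ± 8.64 in StCo. Both were higher in cerebellum (log2 0.55 for Npr2 and 2.87 for Npr1). Gucy2g had 102 to 214 normalized counts in striatum and 0 to 2.80 in cerebellum. Against a floor of 3 fragments per library this was at least 61.0-fold higher in StCo than in CeCo and at least 41.0-fold higher in StHi than in CeHi. Gucy2c, the receptor of the intestinal peptide guanylin, had 16.5 to 43.5 in striatum and 0 to 2.56 in cerebellum, at least 13.1-fold higher in the control line and at least 7.37-fold higher in the selected line. It missed the filter and was not tested. Gucy2f, a retinal form, had 79.5 to 97.5 and 4.45 to 19.0 (9.82-fold, adjusted p = 7.45e-11). Like Gucy2g, it passed the filter through striatum samples only. The other retinal form, Gucy2e, had 97.7 to 211 and 140 to 172 and did not pass (adjusted p = 0.173), while the olfactory Gucy2d stayed at 0 to 3.15.

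The lines differed in far fewer members than the regions did. In the cerebellum 2 of the 35 tested members passed, Gucy1a2 and Pde2a, both higher in Hi, where 5.94% of all genes passed. In the striatum 2 of 35 passed, Gucy1a2 higher and Pde9a lower in Hi, where 2.66% of all genes passed. Over both regions together 1 of 35 passed, again Gucy1a2, where 8.48% of all genes passed. The interaction, the cerebellar line difference minus the striatal one, passed for 1 of 35, Pde9a, where 0.532% of all genes passed. The cerebellar share of members, 5.71%, was near that of all genes, while the other counts are of 1 or 2 genes. The samples of the 2 lines did not overlap for 7 of 35 members in cerebellum (13.3% of all genes) and for 3 of 35 in striatum (13.1% of all genes). At an unadjusted p under 0.05 there were 8 of 35 members in cerebellum (19.7% of all genes), 4 in striatum (14.1% of all genes) and 6 for the interaction (9.56% of all genes). The median absolute line difference was 0.14 on the log2 scale in cerebellum and 0.12 in striatum over the members, and 0.097 and 0.0845 over all genes.

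Gucy1a2 (ENSMUSG00000041624.10, GRCm38 chr9:3532778-3894736, plus strand) encodes the alpha2 subunit of soluble guanylyl cyclase. In cerebellum the CeCo samples had 1711, 2112, 1868 and 1602 normalized counts and the CeHi samples 2549, 3654, 2849 and 2804. In striatum the StCo samples had 3067, 2931, 2493 and 2859 and the StHi samples 4309, 4389 and 3736. Every Hi sample lay above every Co sample of its region. The difference was 0.69 ± 0.11 (log2, SE) in cerebellum, or 1.61-fold (adjusted p = 0.000655, limma), and 0.54 ± 0.11 in striatum, or 1.46-fold (adjusted p = 0.0155). Over both regions it was 0.62 ± 0.08 (adjusted p = 7.67e-05), and the line differences of the regions were 0.15 ± 0.16 apart (adjusted p = 0.857). The striatal call rested on its samples: without StHi replicate 0 the adjusted p was 0.0568 and without StHi replicate 1 it was 0.0816, with differences of 0.51 and 0.50. The cerebellar difference passed in each of 26 alternatives, between 0.59 and 0.76.

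The partners of Gucy1a2 did not pass between lines. Gucy1a3 had 2012 ± 111 normalized counts (SD) in CeCo against 2122 ± 123 in CeHi, and in striatum 6865 ± 515 for StCo against 6653 ± 1020 for StHi. Gucy1b3 had 5146 ± 251 and 5003 ± 300 in cerebellum and 12792 ± 859 and 11628 ± 1115 in striatum. Per kilobase, the alpha2 subunit thus made up 48.6 ± 3.6% of the alpha subunits in CeCo and 59.2 ± 4.2% in CeHi, with ranges of 43.7 to 52.1% and 54.7 to 64.5%. In striatum it made up 30.3 ± 3.2% in StCo and 39.7 ± 4.0% in StHi, with ranges of 25.5 to 32.4% and 37.3 to 44.2%. The ranges of the lines did not overlap in either region. Summed alpha per beta1 transcript was 0.43 ± 0.03 in CeCo and 0.59 ± 0.08 in CeHi, and 0.43 ± 0.03 in StCo and 0.53 ± 0.05 in StHi.

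**Figure D3:**
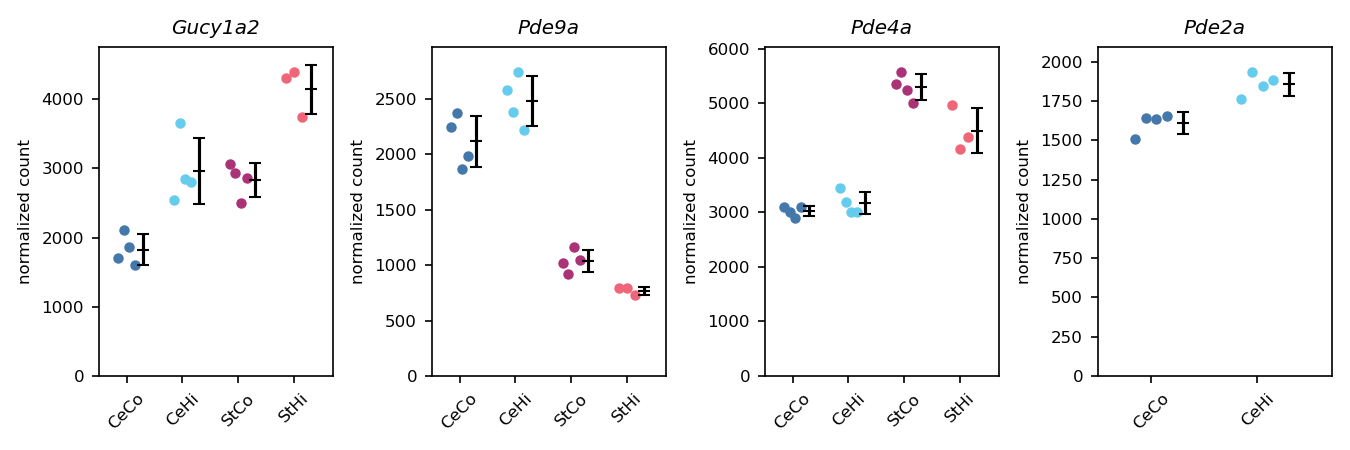
Normalized counts per sample (points) with the group mean and SD (bars) for Gucy1a2, Pde9a and Pde4a in the 4 groups and for Pde2a in cerebellum, axes from 0. Gucy1a2 is higher in every Hi sample of both regions, and Pde9a is lower in the 3 StHi samples (727 to 791) than in the 4 StCo samples (924 to 1167).

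Pde9a (ENSMUSG00000041119.12, chr17:31386210-31476310, plus strand) was the member whose line difference itself differed between regions. The StCo samples had 1020, 924, 1167 and 1042 normalized counts and the StHi samples 791, 790 and 727, with no overlap. The CeCo samples had 2249, 2371, 1868 and 1983 and the CeHi samples 2584, 2379, 2741 and 2221, which overlapped. In striatum Pde9a fell by 0.43 ± 0.09 on the log2 scale in Hi, or 1.35-fold (adjusted p = 0.0146). In cerebellum the difference was 0.22 ± 0.09 in the other direction and did not pass (adjusted p = 0.142). The interaction was 0.66 ± 0.13 (adjusted p = 0.022). The striatal call was lost without StHi replicate 2, the library with raised choroid plexus markers (difference -0.39, adjusted p = 0.0824), and the interaction without CeCo replicate 3 (0.0568), CeHi replicate 0 (0.0577), CeHi replicate 2 (0.0603), StHi replicate 1 (0.0556) or StHi replicate 2 (0.0746). The interaction kept between 0.60 and 0.71 over 25 alternatives.

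Pde2a (ENSMUSG00000110195.1, chr7:101421691-101512827, plus strand) rose in the Hi cerebellum by a small amount. The CeCo samples had 1507, 1641, 1634 and 1652 normalized counts and the CeHi samples 1762, 1933, 1847 and 1885, with no overlap. The difference was 0.20 ± 0.05 on the log2 scale, or 1.15-fold (adjusted p = 0.0375). It was near the threshold: leaving out 1 sample ended the call for CeCo replicates 0 (adjusted p = 0.11), 1 (0.0597), 2 (0.0509) and 3 (0.0511), for CeHi replicates 1 (0.0825), 2 (0.0615) and 3 (0.0673), and for StHi replicate 2 (0.05). In striatum, where Pde2a is abundant, the difference was -0.0098 ± 0.06 (adjusted p = 0.975), and the interaction of 0.21 ± 0.08 did not pass (adjusted p = 0.358).

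Pde4a (ENSMUSG00000032177.17, chr9:21165714-21213248, plus strand), a cAMP-specific enzyme, had the second smallest interaction p among the members. The StCo samples had 5358, 5572, 5252 and 5005 normalized counts and the StHi samples 4965, 4158 and 4386, all below StCo. The difference of -0.24 ± 0.06 in striatum stood just above the threshold (adjusted p = 0.0522). It passed without StHi replicate 0 (adjusted p = 0.0114) or StCo replicate 3 (0.0495). In cerebellum the difference was 0.06 ± 0.06, and the interaction of 0.30 ± 0.09 did not pass (adjusted p = 0.167).

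**Figure D4:**
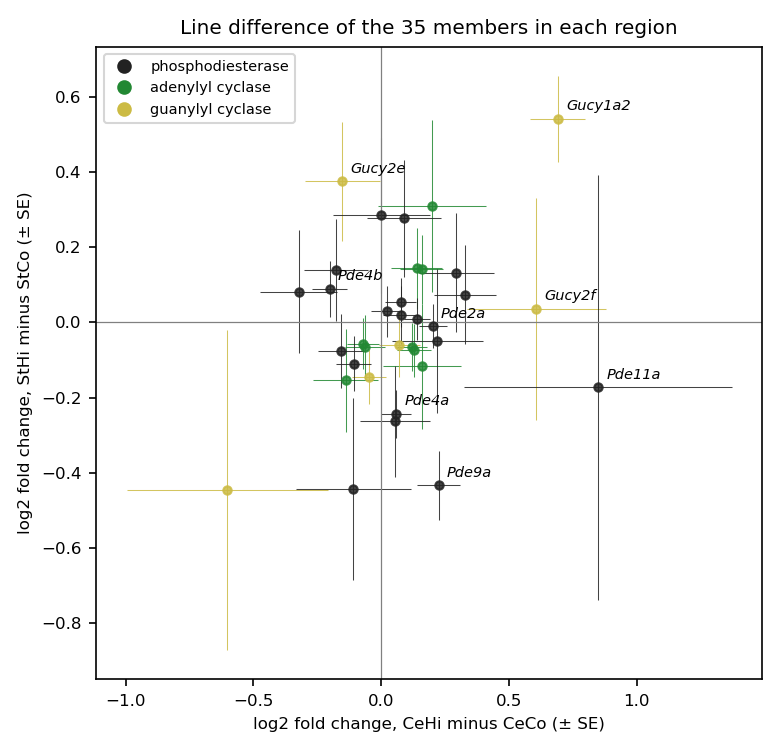
Line difference (log2, Hi minus Co, with SE bars) in cerebellum on the horizontal and in striatum on the vertical axis for the 35 members tested. Gucy1a2 lies at 0.69 and 0.54, apart from the rest, Pde9a at 0.22 and -0.43, and the widest bars belong to sparse genes such as Pde11a.

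Several abundant enzymes with wide region differences did not pass between lines. In striatum Pde1b had 40018 ± 5731 normalized counts in StCo and 42193 ± 5318 in StHi, Pde10a 49667 ± 9565 and 52749 ± 10257, and Adcy5 37333 ± 3794 and 41368 ± 4896 (SD, n = 4 and 3). Their adjusted p-values were 0.888, 0.905 and 0.559. In cerebellum Adcy1 had 119246 ± 4149 in CeCo and 109457 ± 14957 in CeHi (adjusted p = 0.601), and Pde5a 4131 ± 405 and 4335 ± 702 (adjusted p = 0.87). Members whose CeHi and CeCo samples did not overlap without passing the test were Adcy2, Adcy4, Pde10a, Pde1b and Pde6d. Cerebellar Pde1b had 948 to 1095 in CeCo and 1117 to 1625 in CeHi, the highest again in the library with raised medium spiny neuron markers (log2 0.33 ± 0.12, adjusted p = 0.139). Without that library the difference was 0.21 (adjusted p = 0.317). Cerebellar Pde10a had 5184 to 6147 and 3567 to 5162 (log2 -0.32 ± 0.15, adjusted p = 0.254), the lowest in the same library, without which the difference was -0.21 (adjusted p = 0.527).

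Cell-type markers were also compared between the lines. Of 43 tested markers of 8 cell types, 0 passed in cerebellum in limma, where 5.94% of all genes passed. At an unadjusted p under 0.05 there were 13, where 19.7% of all genes were. In striatum 1 passed, the granule cell marker Cbln1, higher in StHi, where 2.66% of all genes passed. At an unadjusted p under 0.05 there were 8 in striatum, where 14.1% of all genes were. Cbln1 alone passed for the interaction, where 0.532% of all genes passed. Over both regions 5 passed, where 8.48% of all genes passed. Penk (medium spiny neuron), Mbp (oligodendrocyte), Gfap (astrocyte) and C1qa (microglia) were higher in Hi, and P2ry12 (microglia) was lower. The summed level of 4 oligodendrocyte markers was 189262 to 213746 normalized counts in StHi and 121777 to 179039 in StCo, without overlap, although 0 of the 4 passed in limma (3 at an unadjusted p under 0.05). In cerebellum the summed level of the 8 medium spiny neuron markers was 10518 to 11660 in CeHi and 8302 to 9766 in CeCo, with 0 of 8 passing in limma (4 at an unadjusted p under 0.05). None of these markers was at 0 in any library. Their part in the line differences of Gucy1a2, Pde9a and Pde2a was not tested. Without CeHi replicate 3, the library with raised medium spiny neuron markers, the cerebellar difference of Gucy1a2 was 0.71 (adjusted p = 0.00175, limma). The Pde9a interaction was then 0.70 (adjusted p = 0.0136). The cerebellar difference of Pde2a was then 0.20 and no longer passed (adjusted p = 0.0673).

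The genes up- and downstream of the enzymes showed the same balance of a wide region difference and few line differences. Of 7 G protein alpha subunits that act on adenylyl cyclase, 3 were higher in striatum and 2 in cerebellum. Gnal, the stimulatory subunit of striatal neurons, was 2.03 higher in striatum on the log2 scale, while Gnas did not pass (adjusted p = 0.819). Of 6 protein kinase A subunits, 5 were higher in striatum, with the regulatory subunit Prkar2b widest apart (log2 -3.47). Prkg1, a cGMP-dependent kinase, was higher in cerebellum (log2 1.096) and Prkg2 in striatum (log2 -3.80). Of 10 protein kinase A substrates and inhibitors, 6 were higher in striatum, among them Arpp21 (log2 -3.79) and Ppp1r1b, which encodes DARPP-32 (log2 -3.43). Another 3 were higher in cerebellum, led by the kinase inhibitor Pkib (log2 3.22). Of 8 A-kinase anchors, 5 were higher in striatum, Akap5 by the most (log2 -5.22), and 3 in cerebellum, led by Akap12 (log2 1.57). Both Epac genes, Rapgef3 and Rapgef4, were higher in striatum. All 3 calmodulin genes were higher in striatum.

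Between lines 3 of the 50 tested pathway genes passed in cerebellum, where 5.94% of all genes passed. Of these 3, Npr1 also passed over both regions, where 8.48% of all genes passed. At an unadjusted p under 0.05 there were 9 of 50 in cerebellum, where 19.7% of all genes were. Prkar2b rose from 648 ± 43.7 normalized counts in CeCo to 830.4 ± 91.4 in CeHi (log2 0.35 ± 0.08, adjusted p = 0.00992). Npr1, a membrane guanylyl cyclase that is the receptor of atrial natriuretic peptide and carries no Gucy symbol here, fell from 865 ± 53.5 to 592 ± 64.1 (log2 -0.56 ± 0.10, adjusted p = 0.00196). Akap1, which anchors protein kinase A at mitochondria, fell from 3366 ± 279.9 to 2829 ± 272 (log2 -0.26 ± 0.07, adjusted p = 0.0368). In striatum 0 of the 50 passed in limma, where 2.66% of all genes passed. There 3 of the 50 had an unadjusted p under 0.05, where 14.1% of all genes did. For Prkar2b and Npr1 the interaction did not pass (adjusted p = 0.0993 and 0.313). The Epac gene Rapgef4 did not pass in cerebellum, with 10950 ± 768 in CeCo and 8563 ± 642 in CeHi (adjusted p = 0.0556, limma). Nor did Nos1, the neuronal synthase of the nitric oxide that activates soluble guanylyl cyclase. It had 2076 ± 263 in CeCo and 1668 ± 182 in CeHi (adjusted p = 0.0775).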

How the data were processed

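The table was deposited as 1 matrix of signal values for 26628 genes in 15 samples. Per the labels and the study's methods, the authors checked reads with FastQC, aligned read pairs to GRCm38 with TopHat2, and used Cuffnorm 2.2.1 to scale gene counts for library size. The deposited signal is thus a fragment count over a library-size factor, not divided by gene length. The study used 16 samples and left out 1 StHi sample that lay apart in principal components, so 15 were analysed here. Nearly all low values (99.6 to 99.8% per sample, tolerance 0.05) were whole multiples of 1 step per sample (0.841 to 1.30), and dividing by it gave 32909302 to 47485550 fragments per sample. Groups and replicate numbers came from sample titles.

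Members were all genes whose symbols match the patterns. The members and the gene lists were chosen with earlier results of these data known. The 15213 genes that reached a CPM (counts per 1e+06) of 1 in 3 samples were tested with limma 3.58.1 in R 4.3.3 on log2(value + 1), with trimmed mean of M-values factors (0.993 to 1.01), 1 mean per group, trended robust moderation and Benjamini-Hochberg adjustment over all tested genes at 0.05. A fold change on this scale understates the change of low genes. By the study's methods the mice were caged singly and were not siblings. Within a region the p-values thus compare separate mice of 1 selected and 1 control line. The spread they use was estimated per gene over all 4 groups, and so over both regions. The reported fit treated the 15 samples as independent. Where a mouse gave both regions, the tests that combine the regions count that mouse more than once, as does the spread estimated over both regions. Members were described with values where they passed a line or interaction test, had an unadjusted interaction p under 0.005 or had a group mean of at least 500 normalized counts. Of each pathway list, genes passing a line test and up to 2 per direction of region difference were named. Some listed genes are not reported here. The floor is 3 fragments per library, averaged over the libraries of a group, and covers counting error only. Levels were compared between genes per kilobase of the union of GENCODE M21 exons, on which all 42 members were placed. No p-value is given for summed shares. The model and its code were tested on simulated data. Same-numbered samples of the regions were compared by the correlation of their deviations from the group means. It was 0.17 to 0.28 in Co, where samples of unlike number had -0.16 to 0.015. In Hi it was -0.075 to 0.051 for the same number. The numbers were not taken to pair the samples in the reported fit. Whether same-numbered Co samples share a mouse was not tested. Alternatives changed the pseudocount, filter, scaling, moderation, sample weights, replicate block, samples fitted and gene length.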

Additional observations from a re-analysis of the deposited data

Results flagged for a closer look

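In 7 of 105 groups of 4 samples, 1 sample stood far from the other 3 by Dixon's criterion, where chance gives about 1 in 20. Adcy1 was 19384 normalized counts in StCo replicate 2, against 27536 to 28683 in the other 3. Pde2a was 1507 in CeCo replicate 0, against 1634 to 1652, and Pde8b was 933 in the same library, against 816 to 831. Pde11a was 19.0 in CeHi replicate 3, the library with raised medium spiny neuron markers, against 1.05 to 3.71. Pde4c was 23.2 in CeCo replicate 1, against 38.4 to 41.0, Gucy2f was 4.45 in CeCo replicate 3, against 7.13 to 7.68, and Pde6d was 1610 in StCo replicate 1, against 1701 to 1710. Without CeCo replicate 0 the cerebellar line difference of Pde2a was 0.17 on the log2 scale (adjusted p = 0.11, limma). The line difference of Pde9a differed between the regions by 0.66 on the log2 scale (adjusted p = 0.022, limma), the only member whose interaction passed.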

How the results depend on the processing

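No result changed direction past its threshold. With plain moderation 1 member passed in cerebellum, Gucy1a2, since Pde2a no longer did (adjusted p = 0.0557), and 0 for the interaction in limma (Pde9a at 0.0576, with 6 at an unadjusted p under 0.05 in the reported fit). Sample weights gave 2 for the interaction, adding Pde4a (0.0419), and the interaction count over all genes was then 182 against 81. Pde4b in cerebellum passed with sample weights (0.0482) and without CeCo replicate 2 (0.0389). Leaving out 1 sample gave 1 to 2 members in cerebellum, 1 to 3 in striatum, 0 to 2 for the interaction, 1 over both regions and 30 to 31 between regions. With the replicate number as a block, 2 members passed in cerebellum, 3 in striatum (Pde4a added, adjusted p = 0.0329), 1 for the interaction, 1 over both regions and 30 between regions, with 7 and 15 more than 2-fold higher in cerebellum and striatum. With the number as a block within each line, 2 passed in striatum, 1 over both regions and 30 between regions. Every Co sample correlated best with its own number and 1 of 3 Hi pairs did. By the longest transcript in place of the exon union, dual-substrate phosphodiesterases made up 35.3% (CeCo), 33.5% (CeHi), 77.3% (StCo) and 77.7% (StHi), and Adcy1 84.3% (CeCo). By the same length, Gucy1a2 made up 56.8% (CeCo), 66.8% (CeHi), 37.6% (StCo) and 47.7% (StHi) of the alpha subunits of soluble guanylyl cyclase. The counts of members over 2-fold were added after the data were seen. The tests on recovered fragments were not run, because some columns also hold values below 1 step. Depth limits Adcy10, Gucy1b2, Gucy2c, Gucy2d and Pde6a to Pde6c, which were below the filter.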

Other observations

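Genes within 1 Mb of the 3 members that passed a line test were examined after these calls were seen. Of all genes tested, 5.94% passed between lines in cerebellum and 2.66% in striatum. The neighbour counts are small and were not tested against these shares. Beside Pde9a, 2 of 20 tested neighbours passed. Slc37a1, 35.5 kb upstream, had 58.0 to 74.6 normalized counts in CeCo and 218 to 439 in CeHi (log2 2.17, adjusted p = 7.98e-05, limma), and 242 to 373 in StCo and 533 to 1056 in StHi (log2 1.38, adjusted p = 0.0123). Rsph1, 108.8 kb upstream, had 115 to 199 and 224 to 513 in cerebellum (log2 1.36, adjusted p = 0.0183) and 106 to 186 and 291 to 738 in striatum (log2 1.81, adjusted p = 0.00827). Both were thus higher in Hi in both regions, without overlap, while Pde9a was lower in Hi striatum. Beside Gucy1a2, 1 of 5 passed: Cwf19l2, 53.5 kb upstream, was lower in CeHi (log2 -0.29, adjusted p = 0.0386), with a value of -0.063 in striatum (adjusted p = 0.836). Beside Pde2a, 0 of 28 passed in limma, with 2 in cerebellum and 4 in striatum at an unadjusted p under 0.05, where 19.7% and 14.1% of all genes were.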
